A study of Homo sapiens with 6 samples.

Results

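The human mitochondrial genome encodes 37 genes, and all 37 were followed here in T24 cells after silencing of TRIM28. They were chosen by name, as every row of the deposited count table whose gene name starts with MT-, 37 of 78932 genes in the table. They comprise 13 mRNAs, 2 rRNAs and 22 tRNAs, and no other gene of the mitochondrial genome is in the table. All 37 passed the filter on low counts, which asked for 10 counts or more in any 3 libraries, as did 18474 genes in all. T24 is an established human cell line from a urothelial carcinoma of the bladder. It was transfected either with a control siRNA (siNC, n = 3) or with siRNA against TRIM28 (siTRIM28, n = 3), and the labels call the 3 libraries of each group biological replicates and place all 6 in 1 batch. All cells were grown with fetal serum and antibiotics and received the KeygenMAX3000 transfection reagent. The identity of the TRIM28 siRNA used for these libraries and the time from transfection to harvest are not given in the sources used here, and effects of the siRNA beyond TRIM28 cannot be told apart from those of TRIM28. RNA was enriched for poly(A) before sequencing.

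Mitochondrial DNA is transcribed by its own polymerase, POLRMT, into long precursors that cover nearly all genes of a strand. The tRNAs lie between most of the rRNA and mRNA genes, and their excision by the 5′ and 3′ tRNA processing enzymes frees the other RNAs. The mRNAs carry no introns, most receive a short poly(A) tail, and they encode core subunits of respiratory complexes I, III, IV and V, while all other subunits and every protein of mitochondrial transcription, processing and translation are made from nuclear genes. TRIM28 is a nuclear corepressor and SUMO ligase.

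The tail matters for how these mRNAs are read, which is why the 3′ ends of some of them are shown. In 6 of the 13 reading frames the genome holds only the first letters of the stop codon (T in 5 of them, TA in 1), and the poly(A) tail supplies the rest; the other 7 hold all letters. The last 24 bases of each of those 6, and of MT-CO1 and MT-ND6, whose frames end in AGA and AGG, are given 5′ to 3′ with the stop letters in capitals (GRCh38, GENCODE v29 transcripts).
MT-ND1, chrMT:4239-4262, plus strand: ctccagcattccccctcaaaccTA
MT-ND2, chrMT:5488-5511, plus strand: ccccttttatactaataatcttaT
MT-CO3, chrMT:9967-9990, plus strand: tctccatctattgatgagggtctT
MT-ND3, chrMT:10381-10404, plus strand: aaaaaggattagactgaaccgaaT
MT-ND4, chrMT:12114-12137, plus strand: acatcattaccgggttttcctctT
MT-CYB, chrMT:15864-15887, plus strand: aaaacaaaatactcaaatgggccT
MT-CO1, chrMT:7422-7445, plus strand: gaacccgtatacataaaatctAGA
MT-ND6, chrMT:14149-14172, minus strand: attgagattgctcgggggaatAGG

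Some mitochondrial genes share bases, which bears on their counts. MT-ATP8 and MT-ATP6, both subunits of the ATP synthase, overlap by 46 bases in different reading frames. The shared stretch is shown with the start codon of MT-ATP6 and the stop codon of MT-ATP8 in capitals.
MT-ATP8 and MT-ATP6, chrMT:8527-8572, plus strand: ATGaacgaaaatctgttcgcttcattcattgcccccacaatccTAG
MT-ND4L and MT-ND4 share 7 bases, MT-TI and MT-TQ share 3 bases on opposite strands, and the pairs MT-TC with MT-TY and MT-ATP6 with MT-CO3 share 1 base each.

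Total counts ranged from 12989362 to 13942383 per siNC library and from 11712623 to 14018052 per siTRIM28 library. TRIM28 fell by 3.54 on the log2 scale (SE 0.0723, adjusted p = 1.03e-10), from 104 ± 4.09 CPM (SD, n = 3) in siNC to 8.87 ± 0.658 CPM (SD, n = 3) in siTRIM28. CPM is a gene's count relative to the TMM-scaled sum of counts on the 18474 genes tested in its library. Adjusted p-values come from the quasi-likelihood test of edgeR, with the Benjamini-Hochberg method applied over all 18474 genes. Of 15 urothelial and epithelial markers 6 passed the filter and KRT20 and UPK1B were at 0, whereas 4 of 4 mesenchymal markers and 0 of 6 blood and endothelial markers passed it. The libraries were not equally close within groups. Replicates 1 and 2 of siNC differed by hardly more than counting noise (chi-square per degree of freedom 1.08), as did replicates 2 and 3 of siTRIM28 (1.22), while siNC replicate 3 stood apart from its group (4.17 and 4.22) and siTRIM28 replicate 1 from its own (6.25 and 5.65). Results that rest on one of these libraries are given with and without it.

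Nothing in the counts showed that the strands were separated, although the library kit is a stranded one. A gene that lies opposite UBB, ENSG00000265401, held between 99.2% and 99.7% of the counts of UBB in every library, and ENSG00000258377 held between 98.2% and 99.4% of those of MGAT2, the gene it lies opposite. These pairs were chosen after their values were seen. Of 255 genes that lie wholly inside exons of an opposite-strand gene with 1000 counts or more, 236 had a count, 126 had 100 or more and 26 had 1000 or more. In the example pairs, reads were thus counted for both genes, whatever their strand, and the counting options are not given in the sources used here. If the same held for the mitochondrial genome, RNA of both strands cannot be told apart at MT-ND6 and the tRNAs annotated on the minus strand, and a read reaching from an mRNA into a tRNA would count for both.

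A larger share of all counts fell on mitochondrial genes in siTRIM28. The share was 4.95%, 4.97% and 5.29% in siNC replicates 1 to 3 (mean 5.07% ± 0.193, SD, n = 3), and 5.72%, 6.29% and 6.14% in siTRIM28 (mean 6.05% ± 0.293, SD, n = 3). Every siTRIM28 library lay above every siNC library. The mRNAs made up most of it. Their share was 4.15%, 4.16% and 4.15% in siNC and 5.02%, 5.40% and 5.25% in siTRIM28, so that the groups did not overlap. The 2 rRNAs held between 0.730% and 1.07% in siNC and between 0.627% and 0.803% in siTRIM28, which overlap. The 22 tRNAs held between 0.0661% and 0.0709% in siNC and between 0.0734% and 0.0911% in siTRIM28, again without overlap. In bulk RNA, more mitochondrial RNA per cell and less nuclear-encoded mRNA per cell cannot be told apart from these shares.

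Most mitochondrial mRNAs rose in siTRIM28, each by a small factor. Of the 13, 12 rose, 0 fell and 1, MT-CO1, did not pass the test. Over all genes tested, 21.3% were called higher and 20.5% lower, 41.8% in either direction. The median log2 fold change of the 13 was 0.37, or 1.29-fold, with a range from 0.13 to 0.46, against a median of 0.015 over all genes. In 12 of the 13 every siTRIM28 library lay above every siNC library, a pattern shown by 26.3% of all genes. None of the 13 reached a log2 fold change of 0.58, the second threshold used here, which 9.51% of all genes passed on the higher side and 7.51% on the lower side. Without siNC replicate 3 and siTRIM28 replicate 1, the libraries that stood apart, 13 were called higher and the median was 0.37. That choice was made after seeing the data. It leaves only the close library pairs, whose spread was near counting noise. In that fit 3848 of 17700 genes tested were called higher. With the counts of the close pairs summed instead, MT-CO3 and MT-ND4L lost their calls, and 2819 of 18867 genes were called higher. The median difference of the 13 from the siNC mean was 0.28 in siTRIM28 replicate 1, 0.40 in replicate 2 and 0.34 in replicate 3 on the log2 scale, and between -0.0071 and 0.0092 in the siNC libraries.

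**Figure D1:**
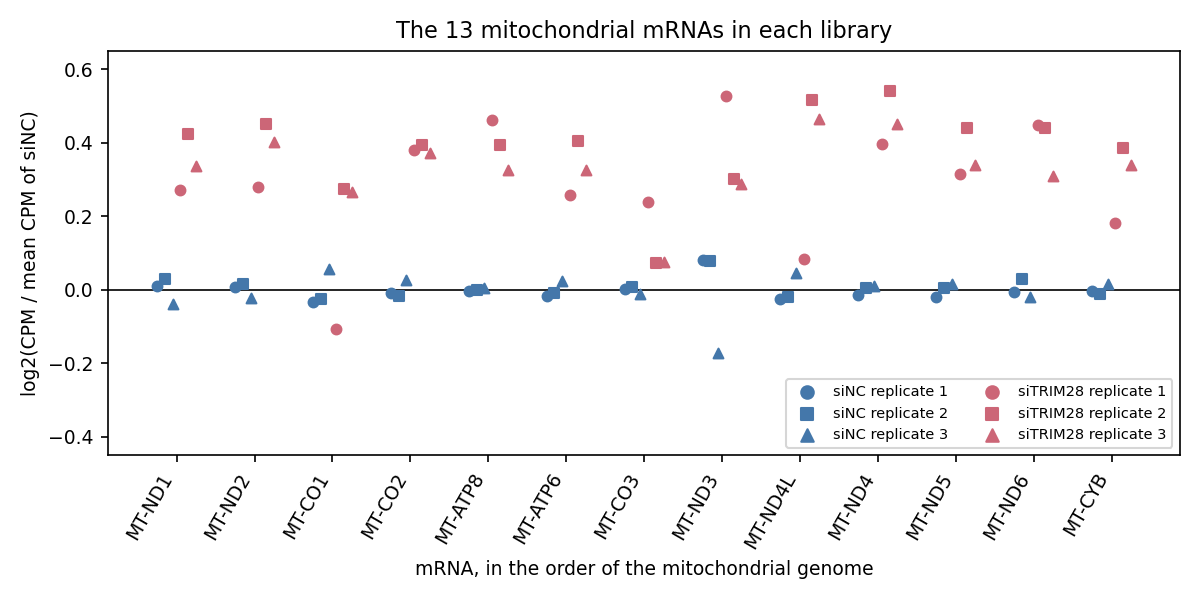
Level of each of the 13 mitochondrial mRNAs in each library, as the log2 ratio of its CPM to the mean CPM of the 3 siNC libraries, with genes in genome order. In 12 genes all 3 siTRIM28 points lie above all 3 siNC points, and in MT-CO1 siTRIM28 replicate 1 lies below the siNC points.

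Complex I, which passes electrons from NADH to ubiquinone, has 7 mitochondrially encoded subunits, and all 7 rose. MT-ND4 rose most. It measured 4815, 4874 and 4891 CPM in siNC and 6393, 7062 and 6636 CPM in siTRIM28, a log2 fold change of 0.46 (SE 0.0378, adjusted p = 2.11e-06). The lowest siTRIM28 library was well above the highest siNC library. MT-ND5 measured 4489, 4566 and 4603 CPM against 5664, 6173 and 5760 CPM (log2 fold change 0.37, SE 0.0367, adjusted p = 1.11e-05). MT-ND1 measured 1351, 1370 and 1305 CPM against 1620, 1798 and 1694 CPM (0.34 on the log2 scale, SE 0.0420, adjusted p = 4.93e-05). MT-ND2 measured 1374, 1382 and 1347 CPM against 1660, 1868 and 1808 CPM (0.38 on the log2 scale, SE 0.0433, adjusted p = 3.03e-05). In all of these the groups were apart and siTRIM28 replicate 1 was the lowest of its group.

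The other 3 complex I mRNAs are the small MT-ND3 and MT-ND4L and the single mRNA annotated on the minus strand, MT-ND6. MT-ND3 measured 457, 457 and 384 CPM in siNC and 624, 533 and 528 CPM in siTRIM28 (log2 fold change 0.38, SE 0.0756, adjusted p = 0.00186). Its low siNC library was replicate 3 and its high siTRIM28 library was replicate 1. MT-ND4L measured 1475, 1479 and 1548 CPM against 1591, 2145 and 2071 CPM (0.37 on the log2 scale, SE 0.0860, adjusted p = 0.00484), so that siTRIM28 replicate 1 lay only just above the siNC libraries. Its call was lost when the counts of the close library pairs were summed (0.28 on the log2 scale, adjusted p = 0.102). MT-ND6 measured 2284, 2340 and 2262 CPM against 3132, 3114 and 2844 CPM (log2 fold change 0.40, SE 0.0406, adjusted p = 1.19e-05). The groups of MT-ND6 were apart, and its counts may hold reads of both strands.

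Complex III, which passes electrons on to cytochrome c, has a single mitochondrially encoded subunit, cytochrome b. MT-CYB measured 2810, 2790 and 2846 CPM in siNC and 3192, 3679 and 3561 CPM in siTRIM28 (log2 fold change 0.30, SE 0.0469, adjusted p = 0.000295). Every siTRIM28 library was higher than every siNC library.

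The 3 core subunits of complex IV, cytochrome c oxidase, behaved unequally. MT-CO2 measured 1514, 1506 and 1551 CPM in siNC and 1981, 2002 and 1973 CPM in siTRIM28, a tight rise of 0.38 on the log2 scale (SE 0.0316, adjusted p = 2.36e-06). MT-CO3 had the smallest fold change of the 13. It measured 6708, 6731 and 6646 CPM in siNC and 7898, 7043 and 7050 CPM in siTRIM28 (log2 fold change 0.13, SE 0.0429, adjusted p = 0.0287). The groups did not overlap, yet the call was lost when siNC replicate 1, 2 or 3 was left out (adjusted p = 0.0829, 0.0802 and 0.0871), with DESeq2 (0.106) and with the close pairs summed (0.0554). Without siTRIM28 replicate 1, the highest library, the log2 fold change shrank to 0.075 (adjusted p = 0.00152). The smaller p came with siTRIM28 resting on the close pair of replicates 2 and 3, at 7043 and 7050 CPM. MT-CO1 was the exception. It measured 5529, 5553 and 5884 CPM in siNC and 5251, 6842 and 6795 CPM in siTRIM28 (log2 fold change 0.15, SE 0.0802, adjusted p = 0.145). Replicate 1 of siTRIM28 lay below all siNC libraries and replicates 2 and 3 above them, and without that library the log2 fold change was 0.27 and passed the threshold, with siTRIM28 then resting on the close pair of replicates 2 and 3.

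Both mitochondrially encoded subunits of complex V, the ATP synthase, rose. MT-ATP8 measured 3430, 3440 and 3449 CPM in siNC and 4736, 4523 and 4310 CPM in siTRIM28 (log2 fold change 0.40, SE 0.0370, adjusted p = 6.20e-06). MT-ATP6 measured 5408, 5438 and 5562 CPM against 6534, 7238 and 6856 CPM (0.33 on the log2 scale, SE 0.0384, adjusted p = 3.47e-05). Both were apart between groups, and reads in their shared 46 bases may have entered both counts.

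Per length, the levels of the 13 mRNAs in siNC spanned from MT-ATP8 at the top to MT-ND3 at the bottom. In RPKM, which divides CPM by gene length in kilobases, MT-ATP8 was at 16617 ± 45.3 (SD, n = 3), followed by MT-CO3 at 8539 ± 56.4 and MT-ATP6 at 8032 ± 120.0. MT-ND4L came next with 5052 ± 138 RPKM, then MT-ND6 with 4372 ± 76.5, MT-CO1 with 3668 ± 129 and MT-ND4 with 3527 ± 29.1. The lower part of the order was MT-ND5 with 2512 ± 32.1 RPKM, MT-CYB with 2467 ± 25.2, MT-CO2 with 2228 ± 34.9, MT-ND1 with 1404 ± 34.9, MT-ND2 with 1313 ± 17.4 and MT-ND3 with 1251 ± 121. The neighbours MT-ND5 and MT-CYB overlapped in siNC, as did MT-ND2 and MT-ND3, and no other neighbours did. The length effect on the short genes is part of these values, since a read that lies only partly in a gene can count in full. The counts of MT-ND6 may hold reads of both strands, so its place in the order is uncertain. By group means, the order in siTRIM28 was the same apart from exchanges between the pairs MT-ATP6 and MT-CO3, and MT-ND4 and MT-CO1. In siTRIM28 MT-ATP6 stood at 10097 ± 518 RPKM (SD, n = 3) and MT-CO3 at 9350 ± 627, and MT-ND4 at 4860 ± 246 and MT-CO1 at 4083 ± 587. The siTRIM28 ranges of MT-ATP6 (9594 to 10629 RPKM) and MT-CO3 (8984 to 10074 RPKM) overlapped, and in siTRIM28 replicate 1 MT-CO3 stayed above MT-ATP6, whereas those of MT-ND4 and MT-CO1 did not overlap. Other neighbours that overlapped in siTRIM28 were MT-ND4L with MT-ND6, MT-CO1 with MT-ND5, MT-ND5 with MT-CYB, MT-CYB with MT-CO2, MT-ND1 with MT-ND2 and MT-ND2 with MT-ND3.

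**Figure D2:**
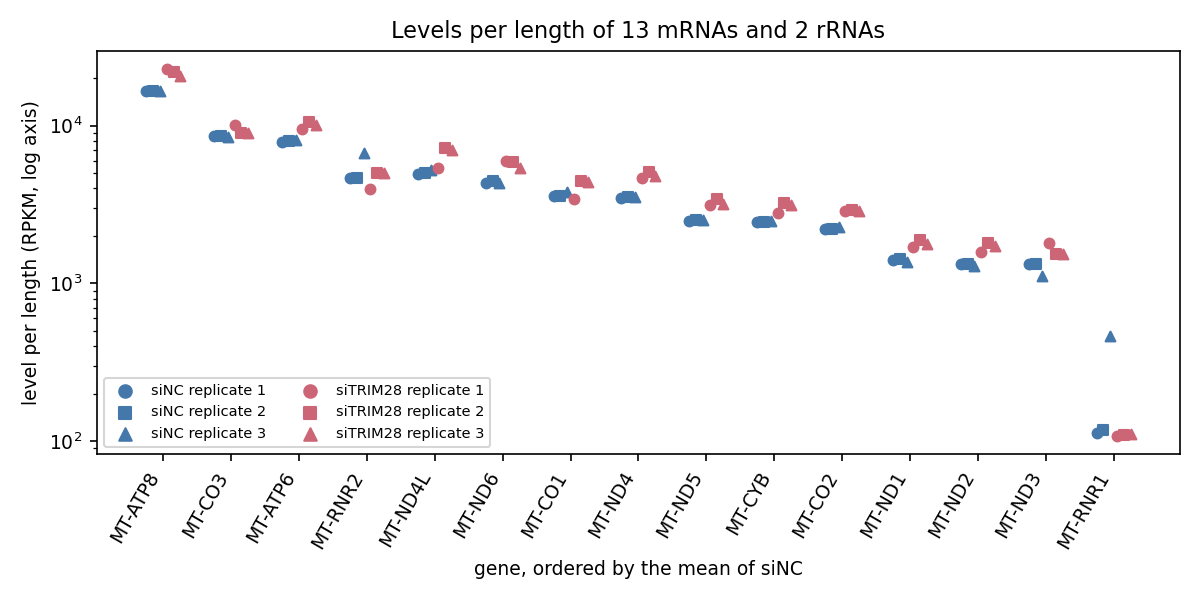
Level per length (RPKM, log axis) of the 13 mRNAs and 2 rRNAs in each library, ordered by the mean of the 3 siNC libraries. Levels run from about 16617 RPKM for MT-ATP8 in siNC down to MT-RNR1, where siNC replicate 3 lies above the other 5 libraries. The values of MT-ND6 may hold reads of both strands.

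To see whether members shifted against each other, the counts were also scaled to the sum of the 13 mRNAs in each library. Each mRNA is itself part of that sum, so a lower share of one goes with higher shares among the others. Rises and falls of the 13 in this scaling are therefore not separate results. In this scaling 1 mRNA was higher and 1 was lower, where 7.72% of all genes tested were called higher and 46.3% lower, 54% in either direction. MT-ND4 made up 11.6%, 11.6% and 11.6% of the mRNA pool in siNC and 12.7%, 13.1% and 12.8% in siTRIM28, a rise of 0.15 on the log2 scale (SE 0.0278, adjusted p = 0.000900). It was called in all 6 fits that left out 1 library. MT-CO3 made up 16.1%, 16.1% and 15.7% of the pool in siNC and 15.7%, 13.04% and 13.6% in siTRIM28, a fall of -0.18 on the log2 scale (SE 0.0573, adjusted p = 0.0222). Its groups touched, because siTRIM28 replicate 1 stood level with siNC replicate 3, and it was called in 2 of the 6 fits that left out 1 library. MT-CO1 made up 13.3%, 13.2% and 13.9% of the pool in siNC and 10.4%, 12.7% and 13.1% in siTRIM28, and was not called. The remaining 10 mRNAs lay within the range of -0.18 to 0.15 and were not called.

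**Figure D3:**
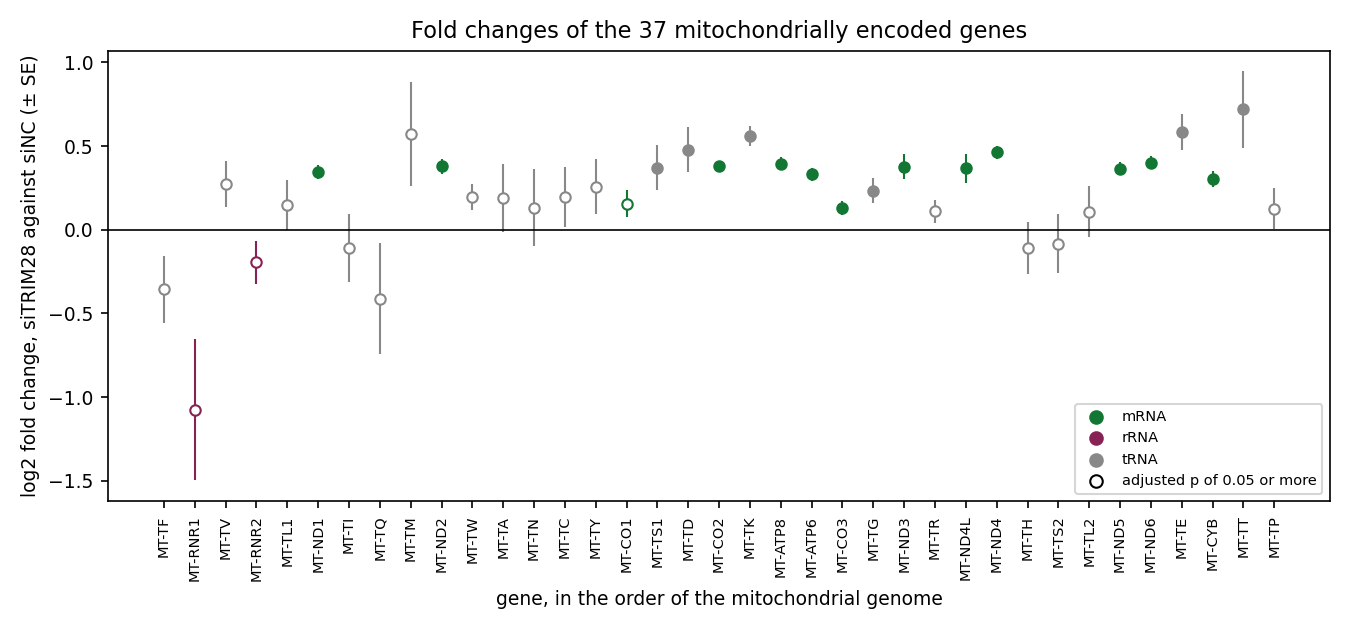
Log2 fold change of siTRIM28 against siNC (error bars, SE from the edgeR fit, n = 3 per group) for the 37 genes in genome order, with filled points for an adjusted p under 0.05. The mRNAs lie between 0.13 and 0.46, whereas both rRNAs lie below 0 and the tRNAs spread from -0.41 to 0.72.

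The 2 rRNAs, which form the small and the large subunit of the mitochondrial ribosome, did not pass the test in either direction. MT-RNR2, the large one, measured 7216, 7317 and 10452 CPM in siNC and 6170, 7805 and 7840 CPM in siTRIM28 (log2 fold change -0.20, SE 0.128, adjusted p = 0.247). The groups of MT-RNR2 overlapped, with siNC replicate 3 the highest and siTRIM28 replicate 1 the lowest. MT-RNR1, the small one, measured 107, 113 and 442 CPM in siNC and 103, 105 and 106 CPM in siTRIM28 (log2 fold change -1.07, SE 0.424, adjusted p = 0.0615). All siTRIM28 libraries lay below siNC, as they did in 25.7% of all genes, though by little against replicates 1 and 2. Nearly all of this difference came from siNC replicate 3, without which the log2 fold change was -0.075 for MT-RNR1 and -0.0012 for MT-RNR2 (adjusted p = 0.306 and 0.993). Without siNC replicate 1 or 2, or siTRIM28 replicate 1, MT-RNR1 passed the threshold at log2 fold changes of -1.41, -1.39 and -1.06 (adjusted p = 0.0191, 0.0227 and 0.0306). Against the mRNA pool, where 46.3% of all genes were called lower, both rRNAs were lower, MT-RNR1 by a log2 fold change of -1.38 (SE 0.439, adjusted p = 0.0207) and MT-RNR2 by -0.51 (SE 0.123, adjusted p = 0.00478). The call held in all 6 fits that left out 1 library for MT-RNR2, with log2 fold changes from -0.60 to -0.32, and in 4 of 6 for MT-RNR1, with log2 fold changes from -1.71 to -0.39, the last of these without siNC replicate 3. The ratio of MT-RNR2 to MT-RNR1 counts was 67.3, 64.9 and 23.6 in siNC and 59.7, 74.6 and 74.1 in siTRIM28, so that only siNC replicate 3 was far from the rest. rRNA in a poly(A)-enriched library is what the enrichment lets through, and its part in these values was not tested.

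The 22 tRNAs were measured at low and uneven depth. Mean counts in siNC ran from 14.7 for MT-TM to 2286 for MT-TK. Mature tRNAs are between 59 and 75 bases long and carry no poly(A) tail, so that these counts may hold precursors and reads of neighbouring genes, which cannot be told apart from mature tRNA. Of the 22, 6 rose, 0 fell and 16 did not pass the test, where 21.3% of all genes were called higher, so the count of called tRNAs was near that of genes in general. A positive log2 fold change was found in 17. The median was 0.19 and the range -0.41 to 0.72. In 7 of the 22 the siTRIM28 libraries all lay above the siNC libraries, again near the 26.3% of all genes. Among the 8 tRNAs annotated on the minus strand 2 were called, with a median log2 fold change of 0.19, and among the 14 on the plus strand 4 were called, with a median of 0.17.

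The 6 tRNAs that rose are shown in full so that they can be told from their neighbours, with the anticodon in capitals (GRCh38, GENCODE v29 transcripts, 5′ to 3′, written as DNA without the CCA end that is added later).
MT-TK for lysine, chrMT:8295-8364, plus strand: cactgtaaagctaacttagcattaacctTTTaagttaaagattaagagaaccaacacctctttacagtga
MT-TE for glutamate, chrMT:14674-14742, minus strand: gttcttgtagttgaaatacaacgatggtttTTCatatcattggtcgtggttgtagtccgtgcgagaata
MT-TD for aspartate, chrMT:7518-7585, plus strand: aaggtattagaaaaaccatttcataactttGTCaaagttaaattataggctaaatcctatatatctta
MT-TT for threonine, chrMT:15888-15953, plus strand: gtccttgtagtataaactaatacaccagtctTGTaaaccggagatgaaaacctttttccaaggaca
MT-TS1 for serine, chrMT:7446-7514, minus strand: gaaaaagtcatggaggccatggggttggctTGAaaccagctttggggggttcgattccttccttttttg
MT-TG for glycine, chrMT:9991-10058, plus strand: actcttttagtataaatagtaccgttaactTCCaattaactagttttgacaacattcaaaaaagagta

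MT-TK, which lies between MT-CO2 and MT-ATP8, had the most counts of the tRNAs. It measured 169, 169 and 170 CPM in siNC and 278, 236 and 235 CPM in siTRIM28 (log2 fold change 0.56, SE 0.0613, adjusted p = 2.18e-05). The groups were far apart, and MT-TK was also higher against the mRNA pool (0.25 on the log2 scale, SE 0.0771, adjusted p = 0.0169), a call that held in 3 of the 6 fits that left out 1 library. MT-TE measured 22.2, 19.1 and 18.6 CPM in siNC and 35.0, 28.4 and 26.2 CPM in siTRIM28 (log2 fold change 0.58, SE 0.109, adjusted p = 0.00112). MT-TK and MT-TE kept their calls at an adjusted p under 0.01, and the other 4 did not. MT-TD measured 6.34, 5.99 and 5.57 CPM against 9.43, 7.18 and 8.28 CPM (log2 fold change 0.48, adjusted p = 0.0133). Its groups were apart, yet without siTRIM28 replicate 1 the adjusted p was 0.0531. MT-TT measured 1.58, 3.32 and 2.74 CPM against 3.999, 4.39 and 4.22 CPM (log2 fold change 0.72, adjusted p = 0.0245). It was the thinnest of these tRNAs, and without siNC replicate 1 its log2 fold change was 0.45 (adjusted p = 0.0853), while without siTRIM28 replicate 2 or 3 the adjusted p was 0.0629 or 0.0600. MT-TG measured 19.7, 20.01 and 18.7 CPM against 21.1, 23.9 and 23.7 CPM (log2 fold change 0.23, adjusted p = 0.0218). Its call was lost without siNC replicate 1 or 3 or siTRIM28 replicate 2 or 3, with adjusted p-values from 0.0689 to 0.0975. MT-TS1 measured 26.2, 27.9 and 31.2 CPM against 46.3, 33.8 and 29.7 CPM (log2 fold change 0.37, adjusted p = 0.0461). Its groups overlapped, and without siTRIM28 replicate 1 the log2 fold change was 0.16 (adjusted p = 0.0938). The call of MT-TS1 was also lost without siNC replicate 1 or 2 (adjusted p = 0.157 and 0.121).

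A run of neighbouring genes was split between the siTRIM28 libraries. MT-TA, MT-TN, MT-TC and MT-TY, the tRNAs for alanine, asparagine, cysteine and tyrosine, follow each other on the minus strand just before MT-CO1, and all 5 genes lay below every siNC library in siTRIM28 replicate 1 and above every siNC library in replicates 2 and 3. These 5 were singled out after their values were seen. The same split was present in 297 of the 18474 genes tested, or 1.61%. The 4 tRNAs are shown with their anticodons in capitals.
MT-TA for alanine, chrMT:5587-5655, minus strand: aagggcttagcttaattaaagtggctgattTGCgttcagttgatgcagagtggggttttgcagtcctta
MT-TN for asparagine, chrMT:5657-5729, minus strand: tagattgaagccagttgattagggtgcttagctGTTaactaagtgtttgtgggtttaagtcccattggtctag
MT-TC for cysteine, chrMT:5761-5826, minus strand: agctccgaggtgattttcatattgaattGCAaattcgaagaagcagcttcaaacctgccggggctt
MT-TY for tyrosine, chrMT:5826-5891, minus strand: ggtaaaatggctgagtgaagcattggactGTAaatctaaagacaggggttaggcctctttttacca

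MT-TA measured 68.8, 69.0 and 79.0 CPM in siNC and 48.6, 99.99 and 99.2 CPM in siTRIM28 (log2 fold change 0.19, adjusted p = 0.495). MT-TN measured 66.8, 72.8 and 82.1 CPM against 44.1, 100.3 and 99.4 CPM (log2 fold change 0.13, adjusted p = 0.680). In both, replicate 1 was less than the other siTRIM28 libraries by a wide margin. MT-TC measured 103, 105 and 116 CPM against 78.0, 145 and 149 CPM (log2 fold change 0.20, adjusted p = 0.420). MT-TY measured 77.5, 78.7 and 88.5 CPM against 65.6, 112 and 116 CPM (log2 fold change 0.26, adjusted p = 0.231). Without siTRIM28 replicate 1 the log2 fold changes were 0.46 for MT-TA, 0.44 for MT-TN, 0.45 for MT-TC and 0.48 for MT-TY. These are given as a description with no test, since the way the genes were singled out fixes their direction once that library is left out. This library was the lowest of its group in 8 of the 13 mRNAs and 11 of the 22 tRNAs and the highest in 4 and 9. Summed over each class it was the lowest of its group, with 5.02% of all counts on mRNAs, 0.627% on rRNAs and 0.0734% on tRNAs.

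**Figure D4:**
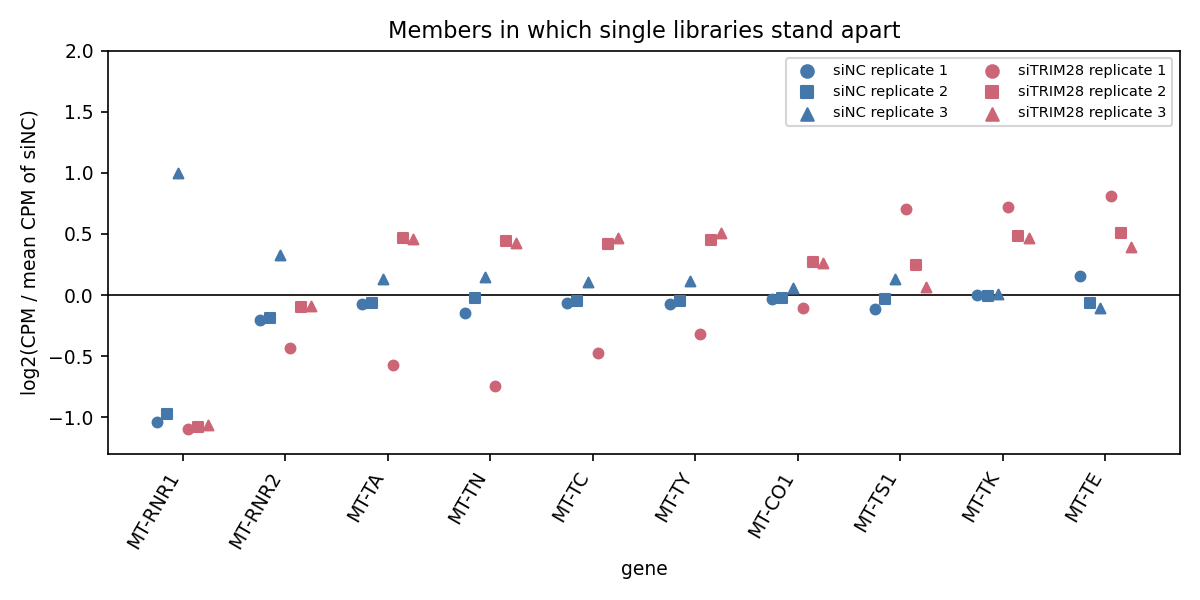
Log2 ratio of CPM to the siNC mean for 10 members, in each library. MT-RNR1 is high in siNC replicate 3, the 4 neighbouring tRNAs and MT-CO1 are low in siTRIM28 replicate 1 and high in replicates 2 and 3, and MT-TK lies above siNC in all 3 siTRIM28 libraries.

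The remaining 12 tRNAs were not called. MT-TV (log2 fold change 0.27, adjusted p = 0.139) and MT-TW (0.20, adjusted p = 0.0658) had all siTRIM28 libraries above siNC. MT-TM had a log2 fold change of 0.57 (SE 0.309, adjusted p = 0.163) at the lowest depth of all. MT-TL1, MT-TR, MT-TL2 and MT-TP had log2 fold changes from 0.11 to 0.15. MT-TF at -0.36, MT-TQ at -0.41, MT-TI at -0.11, MT-TH at -0.11 and MT-TS2 at -0.085 were on the other side. Without siTRIM28 replicate 1, MT-TF was at -0.61 and passed the threshold, as did MT-TP on the higher side. In that fit siTRIM28 rested on the close pair of replicates 2 and 3. Against the mRNA pool MT-TF (-0.66, adjusted p = 0.0218), MT-TH (-0.42, adjusted p = 0.0320) and MT-TR (-0.20, adjusted p = 0.0493) were lower on the log2 scale, in 3, 2 and 1 of the 6 fits that left out 1 library. In that scaling 1 of the 22 tRNAs, MT-TK, was called higher and 3 lower, against 7.72% and 46.3% of all genes tested. Lower calls were thus rarer among the tRNAs than among genes in general.

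Copies of mitochondrial genes in the nuclear genome shared the direction of the mRNAs. The table holds 405 such pseudogenes, of which 149 had at least 1 count and 20 passed the filter. Of these 20, 8 rose, 0 fell and 12 were not called, where 21.3% of all genes were higher and 20.5% lower. Their median log2 fold change was 0.43, and 19 were positive. Without siTRIM28 replicate 1, 12 were called, with siTRIM28 then resting on the close pair of replicates 2 and 3. In that fit 8130 of 18078 genes were called, against 7723 of 18474 with all libraries. The 5 with the most counts lie together on chromosome 1 (GRCh38) and match their mitochondrial parents in 98.0% to 98.6% of aligned bases. MTATP6P1, at chr1:633696-634376, held 14.8% as many counts as MT-ATP6 and rose by 0.43 on the log2 scale (SE 0.0486, adjusted p = 2.84e-05). MTCO1P12 rose by 0.33 (adjusted p = 0.00133), MTND2P28 by 0.45 (adjusted p = 1.43e-05) and MTCO2P12 by 0.47 (adjusted p = 0.00111), and MTCO3P12 had a log2 fold change of 0.18 (adjusted p = 0.0893). With so few differences in sequence, reads of the copies and of the mitochondrial genes could have been placed on each other, and these counts are uncertain in both directions. How the authors treated reads that match several places is not given in the sources used here.

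The nuclear genes that make, process and translate mitochondrial RNA were called lower more often than higher. Of 85 genes tested in 5 lists of mitochondrial gene expression, 12 rose, 35 fell and 38 were not called, with a median log2 fold change of -0.16. Against these, 21.3% of all genes tested were higher and 20.5% lower. In the list of mitochondrial DNA maintenance and transcription 3 of 19 rose and 6 fell. TFAM, which packages mitochondrial DNA and starts its transcription, fell from 48.9 ± 0.788 CPM to 39.2 ± 1.62 CPM (SD, n = 3 each; log2 fold change -0.32, adjusted p = 0.00109). POLRMT, the polymerase, had a log2 fold change of 0.095 (adjusted p = 0.262). TFB2M, the transcription initiation factor, fell by 0.50 on the log2 scale (adjusted p = 0.0167), and POLG2, the accessory subunit of the mitochondrial DNA polymerase, rose by 0.45 (adjusted p = 0.000118).

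Of 20 genes of mitochondrial RNA processing, stability and decay, 3 rose and 6 fell. Over all genes tested 21.3% were higher and 20.5% lower, and the counts of this list were not far from those shares. LRPPRC and SLIRP, which form the complex that protects mitochondrial mRNAs, fell by 0.20 and 0.19 on the log2 scale (adjusted p = 0.00456 and 0.0371). PNPT1, the exoribonuclease of the mitochondrial degradosome, rose by 0.24 (adjusted p = 0.00604), and its helicase partner SUPV3L1 had a log2 fold change of -0.042 (adjusted p = 0.647). MTPAP, the mitochondrial poly(A) polymerase, had a log2 fold change of -0.21 with all siTRIM28 libraries below siNC (adjusted p = 0.0786). Of the subunits of the enzyme that cuts the 5′ ends of tRNAs, HSD17B10 rose by 0.39 (adjusted p = 0.00189) and TRMT10C fell by 0.28 (adjusted p = 0.00172). The catalytic subunit of this enzyme, PRORP, which was added after its values were seen, fell by 0.23 (adjusted p = 0.00930). PRORP is counted among the 20 genes of this list and the 6 that fell, and in the tally over the 5 lists. Among 22 RNA modification genes 3 rose and 10 fell. The largest fall there was METTL8, which methylates mitochondrial tRNAs, by 0.89 on the log2 scale (adjusted p = 3.88e-06), and the largest rise CDK5RAP1, a tRNA modifying enzyme, by 0.31 (adjusted p = 0.00552). Among 17 translation factors 2 rose and 11 fell, from MTRES1, a factor of ribosome rescue, at -0.79 (adjusted p = 8.87e-06) to the release factor MTRF1L at 0.23 (adjusted p = 0.0136). Among 7 regulators of mitochondrial biogenesis that were tested 1 rose and 2 fell, again not far from the shares of all genes. GABPA, a subunit of nuclear respiratory factor, fell by 0.54 (adjusted p = 0.000258) and the coactivator PPARGC1B rose by 0.44 (adjusted p = 0.00777), while PPARGC1A held between 1 and 5 counts per library and was not tested.

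The nuclear-encoded subunits of the same 4 complexes had no common direction. Of 74 tested, 8 rose, 15 fell and 51 were not called, against 21.3% higher and 20.5% lower over all genes. Their share of lower calls was thus near that of all genes and their share of higher calls below it. The median log2 fold change of the 74 was 0.0056, whereas the mitochondrially encoded subunits had 12 of 13 called higher and a median of 0.37. In complex I 2 of 37 nuclear subunits rose and 8 fell, with a median of -0.0035 against 0.38 for the 7 mitochondrially encoded ones. NDUFA8 fell by 1.53 on the log2 scale (adjusted p = 1.71e-07), and NDUFA3 rose by 0.54 (adjusted p = 0.0130). In complex III 1 of 9 rose, UQCR10 by 0.28 (adjusted p = 0.0154), and 1 fell, UQCRQ by 0.57 (adjusted p = 0.000165). In complex IV 3 of 11 rose and 1 fell, with a median of 0.16 against 0.15 for the 3 mitochondrially encoded ones. NDUFA4 rose by 0.34 (adjusted p = 0.0190), and COX8A fell by 0.36 (adjusted p = 0.00244). In complex V 2 of 17 rose and 5 fell, with a median of 0.0060 against 0.36. ATP5F1E fell by 1.08 (adjusted p = 9.88e-07), and ATP5MC3 rose by 0.41 (adjusted p = 0.000488). Complex II has no mitochondrially encoded subunit, and 1 of its 4 genes rose, SDHB by 0.19 on the log2 scale (adjusted p = 0.0364). A nuclear gene that overlaps another may carry reads of both.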

How the data were processed

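RNA-seq of T24 cells (3 siNC and 3 siTRIM28 libraries) was analysed. The table used is the authors' deposited read counts, whole numbers without normalization, for 78932 genes. Their processing notes name fastp 0.23.1, STAR 2.7.6a, featureCounts and GRCh38; the annotation release, the strand setting and the handling of duplicates and multiply placed reads are not given in the sources used here. A second deposited table, of the authors' differentially expressed genes, was not used.

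After TMM scaling, a quasi-likelihood model with condition as its single term was fitted in edgeR 4.0.16 (R 4.3.3) to the 18474 genes that reached 10 counts in 3 or more libraries, with a threshold of 0.05 on the adjusted p. Standard errors were taken as the log2 fold change over the root of F. DESeq2 1.42.0, limma 3.58.1, other scalings and filters, a replicate block and leaving out each library were alternatives. The pool scaling used the sum of the 13 mRNAs as library size. An exact permutation of 3 against 3 libraries cannot give a p under 0.1 and was not used. Same-numbered libraries of the 2 groups deviated from their group means with correlations of 0.068, -0.019 and 0.047. Differently numbered libraries had correlations from -0.081 to 0.053. These values gave no sign of pairing by number. They cannot exclude it, since 2 libraries of each group differed by hardly more than counting noise.

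All members are named. From each list a fixed set of regulators and the largest rise and fall among called genes with a mean of at least 50 counts are named, and the 5 nuclear copies with most counts. Members and lists were chosen with earlier results of these data known. P-values measure the spread between these libraries; whether they came from separate cultures is stated only as biological replicates.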

Additional observations from a re-analysis of the deposited data

How the results depend on the processing

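Over 17 alternatives, a stricter threshold of 0.01 aside, the 13 mRNAs kept their direction throughout, with 10 to 13 called higher and 0 lower, and 211 of 221 values kept their side of the threshold. With 1 library left out, their median log2 fold change lay between 0.32 (without siTRIM28 replicate 2) and 0.38. The replicate block called 7910 genes against 7723 and added MT-CO1 (0.14, adjusted p = 0.0462), MT-RNR1 (-0.74, adjusted p = 0.0438) and MT-RNR2 (-0.18, adjusted p = 0.0392) to the members called. The number of rRNA and tRNA genes called, 6, was 10 with no filter on low counts, 2 at an adjusted p under 0.01, and 13 without siNC replicate 3 and siTRIM28 replicate 1, an alternative chosen after seeing the data. Over all genes, 7723 of 18474 were called in the main fit, 8018 of 46060 with no filter and 7885 of 17700 without both libraries. The share of all genes under 0.01 is not given here. With 1 library left out, the number of rRNA and tRNA genes called lay between 4 and 11. It was 4 without siNC replicate 1, where 6344 of 18185 genes were called. The 11 came without siTRIM28 replicate 1, where 8130 of 18078 genes were called. These numbers take both directions together. The 11 include falls of MT-TF and MT-RNR1, the 13 a fall of MT-TF and the 10 falls of MT-RNR1 and MT-RNR2. The nuclear lists held 85 tested genes of mitochondrial gene expression, 74 of complexes I, III, IV and V and 4 of complex II. Of these, 71 were called in either direction at 0.05, near the 41.8% of all genes, and 45 at an adjusted p under 0.01. Without the share of all genes under 0.01, the 45 cannot be set against genes in general. The number of members called against the mRNA pool, 8 of 37 where 54% of all genes were called, was between 5 (without any 1 of the siNC libraries) and 14 (without siTRIM28 replicate 1) with 1 library left out, 4 with the close pairs summed and 17 without both libraries. The shares of all genes called in these alternative pool fits are not given here, so the change in number cannot be set against them. With mitochondrial tRNA and rRNA genes left out of the total as well as of the mitochondrial counts, the mitochondrial share was 4.19% in siNC and 5.27% in siTRIM28. With 1 library left out, the log2 fold changes of 6 uncalled tRNAs crossed 0, and ranged from -0.022 to 0.27 for MT-TL2, -0.26 to 0.040 for MT-TH, -0.27 to 0.12 for MT-TS2, -0.054 to 0.44 for MT-TN, -0.028 to 0.24 for MT-TP and -0.27 to 0.040 for MT-TI. With the close pairs summed MT-TN was at -0.072, and without both libraries MT-RNR2 was at 0.11, MT-TH at 0.078 and MT-TS2 at 0.19. The cause was not tested. Upper-quartile scaling moved the share of calls that were higher from 51.1% to 56.6%. Low counts limit MT-TM, MT-TT, MT-TQ and MT-TI.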
